A study of Rattus norvegicus with 6 samples.

Results

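The genes described here encode the enzymes and carriers that oxidise fatty acids in mitochondria and peroxisomes, together with the proteins that pass on their electrons and handle ketone bodies. The members are 36 genes named by symbol, and an array probe belongs to a member if its accession maps to that gene in a RefSeq gene table. All 36 were found among the 15639 gene symbols on the array, with 54 probes in all. Their transcripts were measured in kidney cortex from male rats of the outbred Sprague-Dawley strain Crl:CD(SD), which were 5 weeks old when bought and ate a basal diet. For 4 weeks, 3 rats were given 1,2-dibromoethane at 75 mg/kg/day, and the 3 control rats were given corn oil. 1,2-Dibromoethane was once used as a fumigant and a fuel additive, and the body clears it through oxidation and glutathione conjugation. The study has 1 dose and 1 duration, and each rat gave 1 single-colour Agilent array, so that 3 arrays per group limit the precision of every difference.

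Long-chain fatty acids are first joined to coenzyme A, then carried into mitochondria as carnitine esters, and then shortened by repeated rounds of dehydrogenation, hydration, a further dehydrogenation and thiolysis. Flavoproteins pass the electrons of the first dehydrogenation to the respiratory chain. Peroxisomes run a parallel pathway for very long, branched and dicarboxylic chains. The proximal tubule of the renal cortex draws much of its energy from this pathway, and the nuclear receptor PPAR-alpha induces many of its genes.

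Levels below are log2 of the processed signal over the array's 75th percentile, and differences are dibromoethane minus control on that log2 scale. The share of non-control probes well above background was 59.2% to 67.8% per array, and none was saturated. All 36 members were well above background on all 6 arrays. A gene with several probes is represented by its brightest probe. The arrays lay on 3 slides. Slide 1 held dibromoethane replicate 2 and control replicates 1 and 2. Slide 2 held dibromoethane replicate 1 and control replicate 3, and slide 3 held dibromoethane replicate 3 alone. The arrays of slide 2 were scanned on a different day from all others, so slide 2 and its scan day cannot be told apart. Of 17 proximal tubule markers, all were measured, among them Slc5a2, Slc34a1 and Lrp2. In whole cortex, fewer cells of a type and less RNA per cell cannot be told apart.

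Most of the members had lower levels in dibromoethane-treated rats. The log2 difference was negative for 29 of the 36 members, against 53.6% of all 28967 tested features, and the median was -0.17 for the members and -0.02 for all features. The differences were modest, from -0.65 for Eci1 to 0.53 for Acox2. No member passed an adjusted p of 0.05 in limma, a threshold that 0.0311% of all features passed (0.0069% on the lower side). At an unadjusted p under 0.05, 10 members were lower (background 6.62%) and 2 were higher (background 4.53%). In 13 members every dibromoethane array lay below every control array (background 12.1%), and in 2 every dibromoethane array lay above (background 7.38%). The smallest adjusted p among the members was 0.222, reached by Hadh, Acsl1 and Eci1.

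The per-array values show how far this rests on single animals. The median over the members of the level minus the control mean was -0.18, -0.18 and -0.14 in dibromoethane replicates 1 to 3, against 0.03, 0.08 and -0.09 in control replicates 1 to 3. The groups did not overlap, and control replicate 3, on slide 2, lay nearest to the treated arrays. Within slide 1 the members' median difference was -0.19 with 30 of 36 negative, against a median of -0.03 over all features. Within slide 2 the members' median was -0.08 with 21 of 36 negative, again against -0.03 over all features. With slide as a fixed block it was -0.14, against -0.03. The shares of all features that were negative within each slide were not counted. The difference was negative within both slides for 21 members, and the share over all features was not counted. For the 13 members whose groups did not overlap on the lower side, this follows from the lack of overlap itself. The count of 10 at an unadjusted p under 0.05 (6.62% of all features) was 6 without dibromoethane replicate 1 (5.12% of all features), 6 without control replicate 2 (3.96%) and 15 without control replicate 3 (6.69%). Within groups the members' SD had a median of 0.09 in dibromoethane arrays and 0.14 in control arrays.

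**Figure D1:**
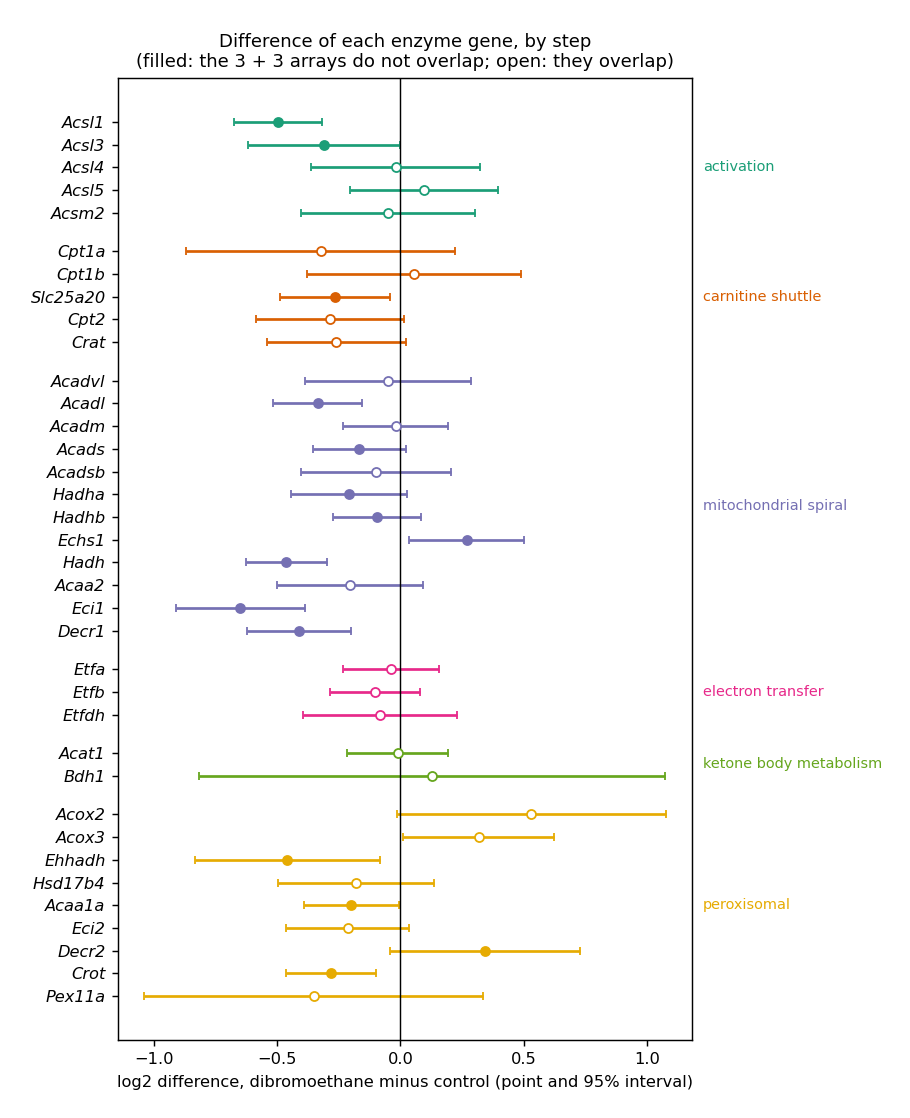
Log2 difference (dibromoethane minus control) of each of the 36 members, grouped by step, as a point with its 95% interval from the limma fit; filled points mark members whose 3 dibromoethane and 3 control arrays did not overlap. Eci1 lies lowest at -0.65, Hadh, Acsl1, Ehhadh and Decr1 lie between -0.50 and -0.41, and 7 members lie to the right of 0, of which Echs1 and Decr2 are filled.

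The acyl-CoA synthetases, which activate fatty acids for oxidation or for lipid synthesis, were uneven, with a median of -0.05 over 5 genes. Acsl1, the long-chain synthetase tied to oxidation in tissues that burn fat, had levels of 5.15, 5.11 and 5.17 in dibromoethane rats, against 5.67, 5.70 and 5.55 in control rats. The groups were separated by more than the spread within either of them. Its log2 difference was -0.50 (SE 0.07, 95% interval -0.68 to -0.32), or 70.8% of the control level, with a limma adjusted p of 0.222. The difference was -0.57 within slide 1 and -0.40 within slide 2. All 4 of its probes were lower, with differences between -0.58 and -0.27. Acsl3, a synthetase of lipid droplets and the endoplasmic reticulum, had levels of 1.14, 1.09 and 1.21 in dibromoethane rats, against 1.38, 1.71 and 1.28 in control rats (difference -0.31, SE 0.13, limma adjusted p = 0.445). The groups did not overlap, and control replicate 2 was the high value. Acsl5, a synthetase of mitochondria and the endoplasmic reticulum, had 0.91, 1.25 and 0.90 in dibromoethane rats, against 0.87, 1.05 and 0.85 in control rats, with the highest value of each group on slide 1. Acsl4, which prefers arachidonic acid, and Acsm2, a medium-chain synthetase, had differences of -0.02 (SE 0.14) and -0.05 (SE 0.14), and their groups overlapped.

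The carnitine shuttle, which moves long-chain acyl groups through the inner mitochondrial membrane, had a median of -0.26 over 5 genes, 4 of them negative. The carnitine-acylcarnitine carrier Slc25a20 had levels of 3.01, 3.11 and 3.02 in dibromoethane rats, against 3.39, 3.38 and 3.16 in control rats. The groups did not overlap, and control replicate 3 again lay nearest to the treated rats (difference -0.26, SE 0.09, limma adjusted p = 0.396). Cpt2, the inner membrane transferase that releases acyl-CoA into the matrix, had 3.57, 3.44 and 3.46 in dibromoethane rats, against 3.89, 3.90 and 3.52 in control rats. Only control replicate 3 fell among the treated values, and the difference was -0.46 within slide 1 and 0.04 within slide 2 (overall -0.28, SE 0.12). Crat, the acetyl transferase of the shuttle, had 6.12, 6.24 and 6.08 in dibromoethane rats, against 6.53, 6.51 and 6.19 in control rats. It too overlapped through control replicate 3 alone, and its other probe was also lower. Cpt1a, the outer membrane transferase at which malonyl-CoA limits entry, had 2.22, 2.55 and 2.64 in dibromoethane rats, against 2.81, 3.18 and 2.39 in control rats. The 3 control rats spanned more than the treated ones (difference -0.32, SE 0.22, 95% interval -0.87 to 0.22). Cpt1b, the isoform of muscle and brown fat, had a difference of 0.05 (SE 0.18), and its 2 other probes were dim. For the step as a whole the median was -0.27 within slide 1 and -0.07 within slide 2.

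The promoter window of Slc25a20 is shown because, among the members that were lower without overlap and have a promoter window, it comes closest to the direct repeat that PPAR and its partner RXR are known to bind. The motif searched was the core AGGTCA in 2 copies, in the same direction and 1 base apart, on both strands of RefSeq promoter windows of the assembly GRCr8, which run from 250 bases before to 50 bases after a gene's start. Capitals mark the best match, which differs from the repeat at 2 of 12 letters and lies just after the start.
Slc25a20, GRCr8 chr8:118243323-118243622, plus strand: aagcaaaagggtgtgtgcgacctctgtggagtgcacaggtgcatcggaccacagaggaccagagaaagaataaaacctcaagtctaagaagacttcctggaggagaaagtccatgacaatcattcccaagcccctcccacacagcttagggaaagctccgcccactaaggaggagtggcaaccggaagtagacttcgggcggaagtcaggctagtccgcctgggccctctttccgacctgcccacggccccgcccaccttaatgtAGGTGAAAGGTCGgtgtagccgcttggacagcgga

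The mitochondrial spiral was lower in 11 of 12 genes, with a median of -0.19 (-0.15 within slide 1 and -0.16 within slide 2). The lowest values belonged to Eci1, the isomerase that shifts double bonds of unsaturated chains so that the spiral can continue. Its levels were 5.89, 5.86 and 5.90 in dibromoethane rats, against 6.58, 6.69 and 6.33 in control rats. The treated rats were nearly equal, and all control rats were higher. The difference was -0.65 (SE 0.11, 95% interval -0.91 to -0.39, limma adjusted p = 0.222), or 63.8% of the control level, with -0.77 within slide 1 and -0.44 within slide 2. Decr1, the dienoyl-CoA reductase that handles polyunsaturated chains, had levels of 5.59, 5.44 and 5.50 in dibromoethane rats, against 5.88, 6.04 and 5.84 in control rats. Its groups did not overlap either (difference -0.41, SE 0.09, limma adjusted p = 0.266). Both auxiliary enzymes for unsaturated chains were among the 4 lowest genes of the spiral.

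Hadh, the hydroxyacyl-CoA dehydrogenase of short and medium chains, had levels of 7.20, 7.16 and 7.14 in dibromoethane rats, against 7.64, 7.67 and 7.58 in control rats. The groups stood well apart, and Hadh had the smallest unadjusted p of all members (difference -0.46, SE 0.07, 95% interval -0.63 to -0.30, limma adjusted p = 0.222), with -0.50 within slide 1 and -0.37 within slide 2. Its second probe gave -0.50. With an eBayes prior that follows intensity and is robust to outlying variances, Hadh was the 1 member to pass, at a limma adjusted p of 0.0395. In that fit 17 of 28967 features passed, against 9 in the main fit. The adjusted p of Hadh ranged from 0.0395 to 0.75 over the alternatives. Echs1, the short-chain enoyl-CoA hydratase that acts one step before Hadh, had the opposite sign. Its levels were 6.92, 6.88 and 6.73 in dibromoethane rats, against 6.63, 6.65 and 6.44 in control rats. Every treated rat lay above every control rat (difference 0.27, SE 0.09, limma adjusted p = 0.404), and the difference was 0.24 within slide 1 and 0.48 within slide 2.

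The acyl-CoA dehydrogenases, each named for the chain length it prefers, open each round of the spiral. Acadl, the long-chain enzyme, had levels of 6.25, 6.13 and 6.15 in dibromoethane rats, against 6.52, 6.57 and 6.45 in control rats, without overlap (difference -0.34, SE 0.07, limma adjusted p = 0.291). Acads, the short-chain enzyme, had 5.65, 5.70 and 5.60 in dibromoethane rats, against 5.83, 5.89 and 5.72 in control rats, also without overlap (difference -0.17, SE 0.08). The medium-chain Acadm (-0.02, SE 0.09), the branched-chain Acadsb (-0.10, SE 0.12) and the very-long-chain Acadvl (-0.05, SE 0.14) overlapped between the groups. Acadvl is the 1 member whose well measured probes differed in sign: the brighter gave 4.41, 4.67 and 4.66 in dibromoethane rats, against 4.75, 4.77 and 4.38 in control rats, and the other gave a difference of 0.04. Acaa2, the mitochondrial thiolase, had a difference of -0.20 (SE 0.12) with overlap, and its other probe was also lower.

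Hadha and Hadhb, the subunits of the trifunctional protein that runs the later reactions on long chains, both had small negative differences. Hadha had levels of 3.02, 2.96 and 3.25 in dibromoethane rats, against 3.34, 3.26 and 3.26 in control rats (difference -0.21, SE 0.10). Hadhb had 2.59, 2.68 and 2.67 in dibromoethane rats, against 2.82, 2.69 and 2.72 in control rats (difference -0.10, SE 0.07). Neither pair of groups overlapped, though the nearest arrays of the groups were almost level. The other probes of Hadha gave -0.41 and -0.23. The genes lie head to head, with starts 301 bases apart in the assembly GRCr8, so that 200 bases belong to both promoter windows. That stretch is shown because the best match to the PPAR repeat in either window, at 3 mismatches, is the same site (capitals).
Hadha and Hadhb, GRCr8 chr6:31907551-31907750, plus strand: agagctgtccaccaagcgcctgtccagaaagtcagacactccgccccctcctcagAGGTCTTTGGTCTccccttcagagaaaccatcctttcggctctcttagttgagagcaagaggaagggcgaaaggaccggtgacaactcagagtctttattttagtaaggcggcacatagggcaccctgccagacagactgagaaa

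**Figure D2:**
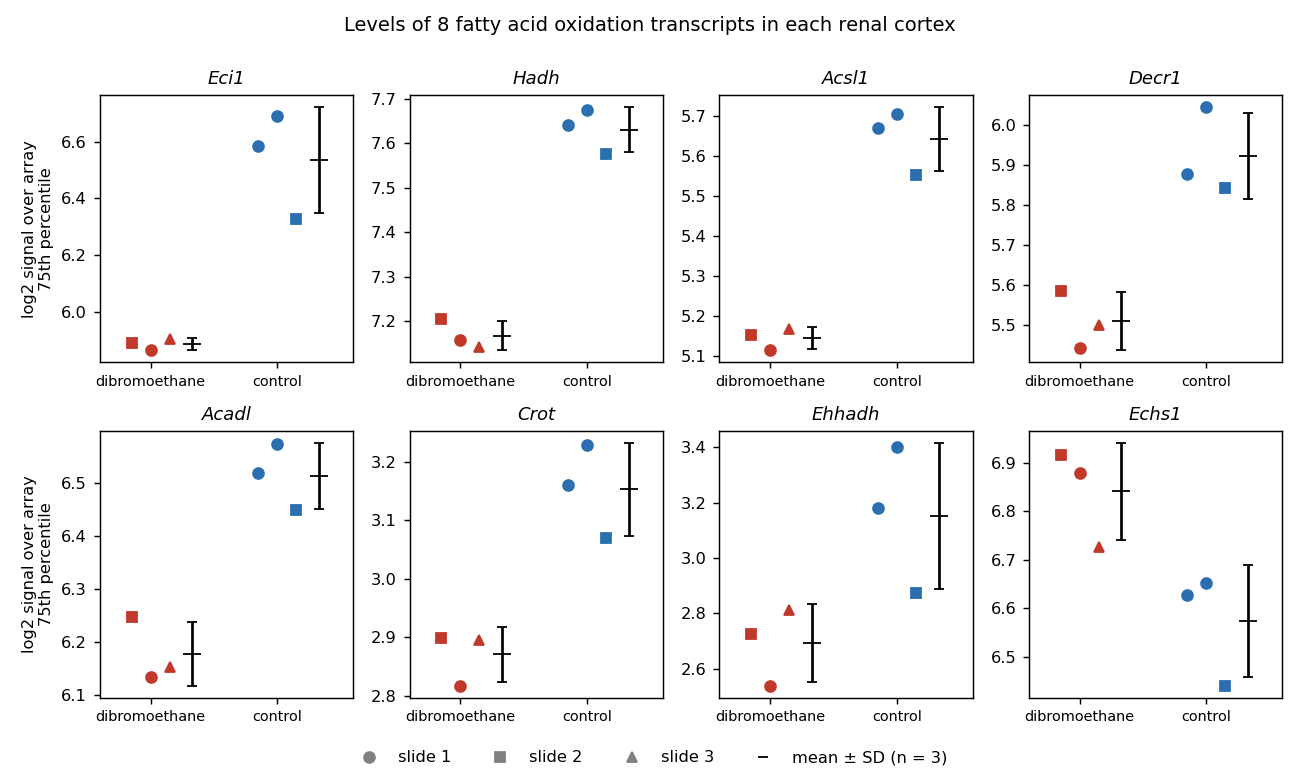
Log2 signal over the array's 75th percentile of 8 members in each rat, dibromoethane at the left and control at the right of each panel, with symbols for the slide and bars for mean ± SD (n = 3); each panel has its own axis, which does not start at 0. All 8 are among the members whose groups did not overlap, so the separation in each panel comes with the choice of genes. Of the 36 members, 13 were lower without overlap (background 12.1%) and 2 were higher (background 7.38%). In 7 panels all dibromoethane rats lie below all control rats, and in the panel of Echs1 they lie above.

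Electron transfer from the dehydrogenases showed little difference, with a median of -0.08 over 3 genes. Etfa, a subunit of the electron transfer flavoprotein, had levels of 3.33, 3.37 and 3.22 in dibromoethane rats, against 3.42, 3.35 and 3.27 in control rats. Etfb, the other subunit, had 6.27, 6.37 and 6.41 in dibromoethane rats, against 6.47, 6.50 and 6.39 in control rats. The groups of both overlapped, and the 95% intervals of the differences ran from -0.23 to 0.16 and from -0.28 to 0.08. Etfdh, the oxidoreductase that hands the electrons to ubiquinone, had 3.29, 3.31 and 3.30 in dibromoethane rats, against 3.38, 3.63 and 3.15 in control rats. The treated rats were nearly equal and lay inside the control range (95% interval -0.40 to 0.23). The step's median was -0.11 within slide 1 and 0.06 within slide 2.

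The ketone body enzymes among the members showed no separation either. Acat1, the mitochondrial acetoacetyl-CoA thiolase, had levels of 4.60, 4.48 and 4.42 in dibromoethane rats, against 4.59, 4.51 and 4.44 in control rats (95% interval of the difference -0.22 to 0.19). Bdh1, which interconverts acetoacetate and hydroxybutyrate, had 1.37, 0.50 and 1.04 in dibromoethane rats, against 1.45, 0.97 and 0.11 in control rats. It was the most variable member in both groups, with a difference of -0.71 within slide 1 and 1.27 within slide 2.

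The peroxisomal genes split. Of 9, 6 were lower and 3 higher, with a median of -0.20 (-0.27 within slide 1 and -0.08 within slide 2). Crot, which turns the shortened products into carnitine esters for export to mitochondria, had levels of 2.90, 2.82 and 2.90 in dibromoethane rats, against 3.16, 3.23 and 3.07 in control rats (difference -0.28, SE 0.08, limma adjusted p = 0.35). Ehhadh, the bifunctional enzyme that is a classical PPAR-alpha target, had 2.73, 2.54 and 2.81 in dibromoethane rats, against 3.18, 3.40 and 2.87 in control rats. Its groups did not overlap, but control replicate 3 stood just above the highest treated rat (difference -0.46, SE 0.15, limma adjusted p = 0.386), and the difference was -0.75 within slide 1 and -0.15 within slide 2. Acaa1a, the peroxisomal thiolase, had 6.44, 6.37 and 6.45 in dibromoethane rats, against 6.69, 6.65 and 6.51 in control rats (difference -0.20, SE 0.08, limma adjusted p = 0.434). Its 3 probes gave -0.32 to -0.20, and whether they also bind transcripts of related thiolase genes was not tested.

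Of the peroxisomal members, 3 had higher means: the acyl-CoA oxidases Acox2 and Acox3, which act on branched chains, and Decr2, the peroxisomal dienoyl-CoA reductase. Acox2 had levels of -3.35, -3.67 and -2.89 in dibromoethane rats, against -4.05, -3.85 and -3.59 in control rats, with overlap (difference 0.53, SE 0.22, limma adjusted p = 0.453). Acox3 had -3.25, -3.38 and -3.19 in dibromoethane rats, against -3.35, -3.73 and -3.69 in control rats (difference 0.32, SE 0.12, limma adjusted p = 0.436), with the groups overlapping narrowly. Both oxidases were dim, and with normexp background correction their differences were 0.21 and 0.12. Decr2 had 3.67, 3.62 and 3.94 in dibromoethane rats, against 3.10, 3.56 and 3.53 in control rats, without overlap (difference 0.34, SE 0.16, limma adjusted p = 0.478). Its mitochondrial counterpart Decr1 had the opposite sign, at -0.41. The remaining members were Hsd17b4, the bifunctional enzyme for branched chains (-0.18, SE 0.13), the isomerase Eci2 (-0.21, SE 0.10) and Pex11a, a factor of peroxisome division (-0.35, SE 0.28), all with overlap. Pex11a had 5.33, 5.13 and 4.88 in dibromoethane rats, against 4.87, 5.92 and 5.60 in control rats, so that control replicate 1 was as low as the lowest treated rat.

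**Figure D3:**
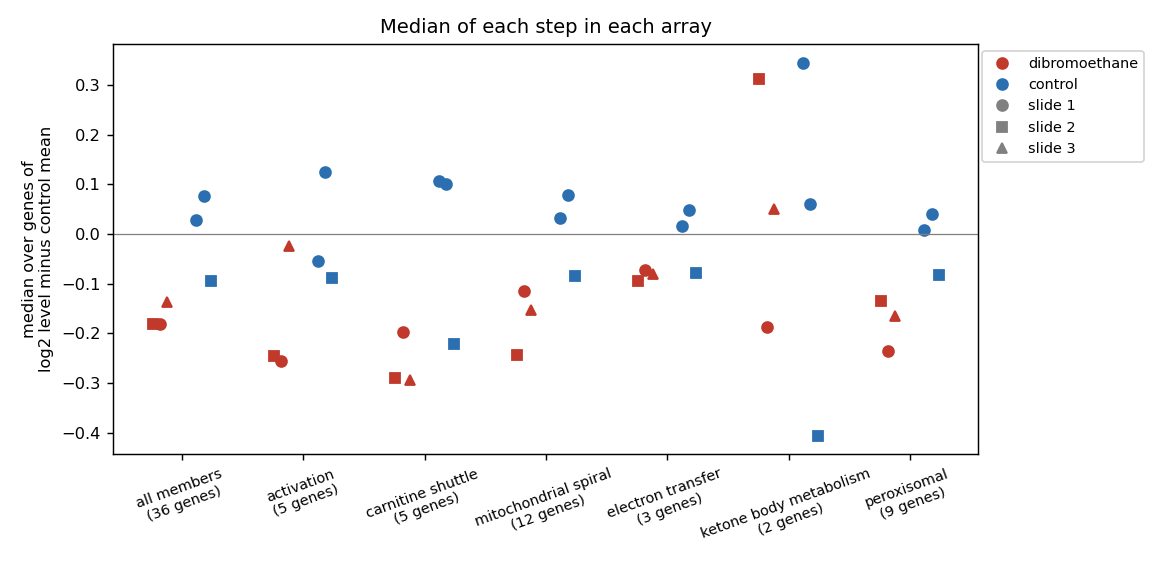
Median over the genes of each step of the log2 level minus the control mean, for each array, dibromoethane (red) left of control (blue), with symbols for the slide. The 3 dibromoethane medians over all members lie between -0.18 and -0.14 and the controls between -0.09 and 0.08; the groups do not overlap for the spiral and the peroxisomal genes, while the control on slide 2 lies among the treated arrays for the shuttle and electron transfer genes.

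Promoter windows were found for 32 members; Cpt1b, Acadl, Acaa2 and Decr1 had no entry. An exact direct repeat was present in 0 of the 32 and in 0.0538% of 33469 windows of all genes. With up to 1 mismatch it was found in 1 member (3.13%), against 0.439% of all windows, and with up to 2 mismatches in 5 members (15.6%), against 3.77%. The core AGGTCA by itself, which overlaps the repeat, stood in 6 members (18.8%) and in 16.2% of all windows. The 5 members with the closest matches were Acadvl, Crat, Echs1, Etfa and Slc25a20, with log2 differences of -0.05, -0.26, 0.27, -0.04 and -0.26. The best matches of Hadh, Eci1 and Acsl1, which had the smallest p-values, differed from the repeat at 3, 4 and 5 letters. The window of Acadvl holds the closest match of all members, 1 mismatch, and is shown for comparison with that of Slc25a20, with the match in capitals.
Acadvl, GRCr8 chr10:55236656-55236955, minus strand: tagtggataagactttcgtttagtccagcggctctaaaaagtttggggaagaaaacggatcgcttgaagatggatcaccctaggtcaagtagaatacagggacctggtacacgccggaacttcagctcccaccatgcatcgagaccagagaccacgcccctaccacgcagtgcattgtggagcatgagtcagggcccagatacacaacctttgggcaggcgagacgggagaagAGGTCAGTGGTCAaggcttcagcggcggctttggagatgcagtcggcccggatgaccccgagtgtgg

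Other genes of the pathway were read from lists. Of 23 measured PPAR-alpha targets outside the members, 19 were lower, with a median of -0.22, 0 passed in limma, and 10 were lower and 0 higher at an unadjusted p under 0.05 (background 6.62% lower and 4.53% higher). The smallest p among them belonged to Cyp4a1, a fatty acid omega-hydroxylase, with 5.10, 4.94 and 5.03 in dibromoethane rats, against 5.68, 5.55 and 5.35 in control rats, and to Slc27a1, a fatty acid transporter, with 1.42, 1.36 and 1.31 in dibromoethane rats, against 1.69, 1.72 and 1.63 in control rats. Neither pair of groups overlapped (differences -0.50 and -0.32). Of 13 measured regulators, 10 were lower, with a median of -0.10, 0 passed in limma, and 1 lower and 1 higher gene had an unadjusted p under 0.05. Ppara itself had levels of -0.24, -0.90 and -0.94 in dibromoethane rats, against -0.10, -0.38 and 0.43 in control rats, with overlap (difference -0.68, SE 0.27, limma adjusted p = 0.441). Pparg, the family member of fat storage, had a difference of 0.39 (SE 0.13, limma adjusted p = 0.4).

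The other mitochondrial and peroxisomal lists had medians of 0.00 to 0.07, against -0.02 for all features. The citrate cycle had a median of 0.04, with 11 of 18 genes higher, and Dlst (0.28, SE 0.07) and Idh3a (0.26, SE 0.08) had its smallest p-values. The respiratory chain had a median of 0.00 (8 of 17 lower), with -0.23 (SE 0.08) for Cox4i1 and 0.14 (SE 0.08) for Ndufs1. Branched-chain and propionate oxidation had a median of 0.01 over 11 genes, with -0.21 (SE 0.07) for Pcca and 0.23 (SE 0.08) for Hibch. Peroxisome biogenesis and other peroxisomal proteins had a median of 0.07, with 16 of 25 higher. In that list Phyh, which starts the alpha-oxidation of branched chains, stood at 0.36 (SE 0.08), and Abcd3, a peroxisomal fatty acid transporter, at -0.27 (SE 0.11). In these 4 lists, with 18, 17, 11 and 25 genes tested, no limma adjusted p was below 0.05. Their genes with an unadjusted p below 0.05 numbered 3 lower and 5 higher, against background shares of 6.62% lower and 4.53% higher. A difference between the members and these lists was not tested.

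**Figure D4:**
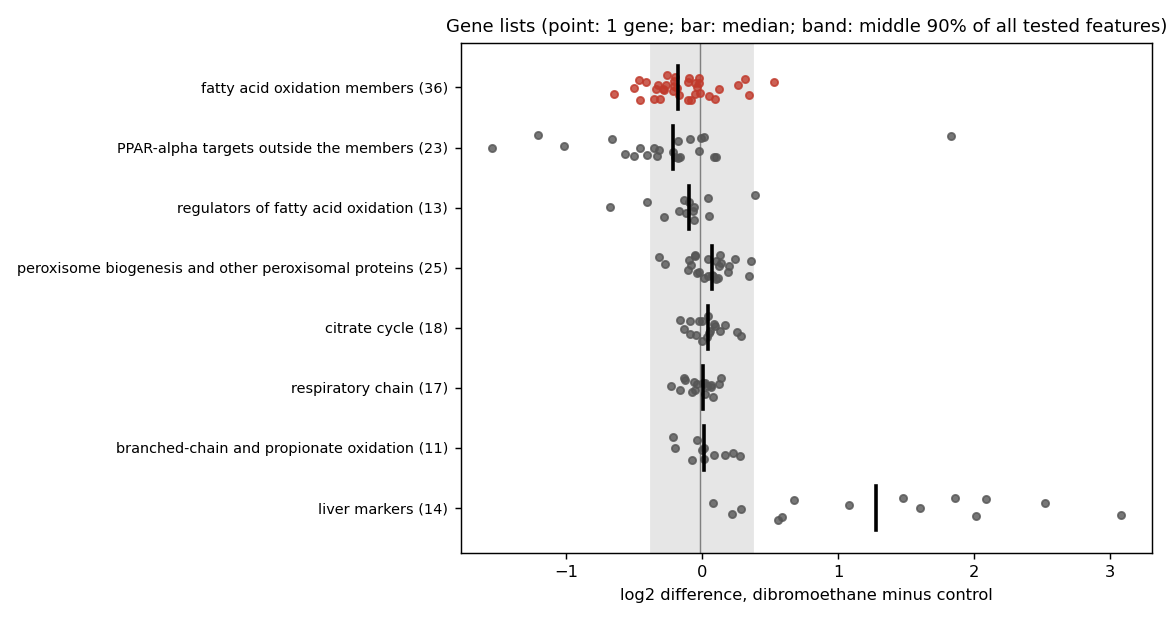
Log2 difference (dibromoethane minus control) of each measured gene by list, with a bar at the median; the grey band holds the middle 90% of all tested features and the grey line their median, -0.02. The members and the PPAR-alpha targets have medians of -0.17 and -0.22, the citrate cycle and respiratory chain 0.04 and 0.00, and all 14 liver markers lie above 0.

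Some marker lists differed with the groups. The summed linear level of the 17 proximal tubule markers was 2442 to 2482 in dibromoethane arrays and 2624 to 2748 in control arrays, without overlap. Such a sum is weighted to the brightest genes. The markers' median difference was -0.08, with 11 of 17 lower, against 53.6% of all features. Single markers ran from -0.82 for Slc7a13 to 0.75 for Acmsd. The part of this in the members' values was not tested. All 14 liver markers, genes of a tissue that also expresses most of the members, were higher, with a median of 1.28. Their summed level was 36.1 to 76.6 in dibromoethane arrays and 23.4 to 36.6 in control arrays, with an overlap. Fat markers, of which 4 of 7 were measured, had a median of -0.34, and their summed level was 1.18 to 1.57 in dibromoethane arrays and 1.57 to 1.73 in control arrays. Thick ascending limb markers had a median of -0.34 (4 of 6 lower), with sums of 143 to 358 in dibromoethane arrays and 322 to 347 in control arrays. The other lists had medians of 0.08 for distal tubule and collecting duct (4 of 11 lower), -0.03 for podocyte (3 of 6), -0.05 for endothelial (5 of 8) and -0.14 for macrophage markers (6 of 9). The part of these lists in the members' values was not tested.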

How the data were processed

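Renal cortex RNA of 6 rats was hybridised to single-colour Agilent arrays, 1 array per animal. Per the file headers, the deposited scanner files were made with Feature Extraction 10.7.1.1, whose processed signal is a background-subtracted linear intensity with no normalization between arrays; their flags are 0 or 1. The authors' deposited series table holds the same intensity divided by each array's 75th percentile. Probes were named through accessions matched to RefSeq genes (28193 probes with 1 symbol). No genome coordinates of probes were used.

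From the processed signal, log2 was taken and each array's 75th percentile over probes that were neither controls nor spike-ins was subtracted. Outlier spots (1 to 11 per array) were left out. A gene was represented by its brightest probe and tested if either group had that probe well above background on all its arrays. Differences were fitted in R 4.3.3 with limma 3.58.1 (lmFit and eBayes, two-sided, no covariate) and adjusted by Benjamini-Hochberg over all 28967 features, at a threshold of 0.05. All tests named here are that limma test. The fit was tested on simulated data. Within-slide values are plain differences with no test.

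The normexp alternative (offset 50) used the median spot signal, since the files hold no mean signal. The members, the lists and the motif were chosen with earlier results of these data known. Per-array values are given for the 3 members of each step with the smallest p and for Acadvl; those of Cpt1a, Acadl, Acads, Hadha, Hadhb, Echs1, Acox2, Acox3, Decr2 and Pex11a, and the Slc25a20 and shared Hadha and Hadhb windows, were added after values were seen. Of each other pathway list the 2 genes with the smallest p are named. Promoter windows come from RefSeq, assembly GRCr8.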

Additional observations from a re-analysis of the deposited data

How the results depend on the processing

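The count of features that passed in limma was 9, and it was 5 with median centring, 5 with normexp, 2 with no filter on dim probes (more features tested), 2 with scan day as a block, 0 with slide as a fixed block (3516 at an unadjusted p under 0.05) and 17 with trend and robust, and 1 to 8 when 1 array was left out. Members that passed numbered 0 under every alternative run other than trend and robust, which gave 1 (Hadh). The count of negative members was 25 to 30 with 1 array left out, and 45 of 53 probes were negative when each probe was tested by itself. Of all features, 50.5% to 56.4% were negative with 1 array left out, and 53.2% with each probe by itself. The members' median was -0.10 after quantile normalization (25 negative), -0.0763 within slide 2 and -0.21 to -0.13 with 1 array left out. In all 22 settings 19 members stayed negative, and Echs1, Acox2, Acox3 and Decr2 stayed positive. Much of this was fixed in advance. Where the groups did not overlap, the sign cannot change within a slide or with 1 array left out. The filters, the scan day and replicate blocks and the trend and robust prior leave each difference as it was. The share over all features was not counted.

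Among the step medians, quantile normalization gave -0.11 for the spiral, -0.0163 for electron transfer and -0.11 for the peroxisomal genes. With each probe by itself, activation was -0.27 and ketone body metabolism -0.0115. Within slide 1, activation was -0.18, ketone body metabolism -0.39 and the peroxisomal genes -0.27. Within slide 2, the shuttle was -0.0694, electron transfer 0.0613, ketone body metabolism 0.72 and the peroxisomal genes -0.0773. With 1 array left out, activation ranged from -0.16 to 0.000844, the shuttle from -0.37 to -0.21, the spiral from -0.20 to -0.14, electron transfer from -0.13 to -0.0368, ketone body metabolism from -0.14 to 0.23 and the peroxisomal genes from -0.25 to -0.16.

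Members whose sign reversed all had main differences between -0.28 and 0.13. Quantile normalization gave Acat1 0.0551, Acadvl 0.0277, Acsm2 0.0604 and Acadm 0.0716, and normexp gave Etfa 0.0102 and Acadvl 0.00712. The mean of the probes gave Cpt1b -0.0764, slide as a fixed block gave Etfa 0.0183, Acat1 0.0329 and Acadsb 0.00739, slide as a random block gave Acat1 0.00272, and array weights gave Acsl4 0.0501. Within slide 1 Bdh1 was -0.71, and within slide 2 Cpt2 was 0.0413, Acadvl 0.0256, Acadm 0.18, Acadsb 0.14, Etfa 0.0613, Etfdh 0.14, Acat1 0.17 and Eci2 0.0338. With 1 array left out, the ranges were -0.18 to 0.0347 for Acadvl, -0.0917 to 0.22 for Cpt1b, -0.24 to 0.43 for Bdh1, -0.16 to 0.0454 for Acsm2, -0.0181 to 0.16 for Acsl5, -0.11 to 0.10 for Acsl4, -0.0796 to 0.0299 for Acadm, -0.0788 to 0.0039 for Etfa, -0.0628 to 0.0308 for Acat1 and -0.20 to 0.0382 for Etfdh. Where no reason is named, the cause was not tested.

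With the replicate number as a block, 0 features passed (3466 at an unadjusted p under 0.05) and 0 members passed. The deviations of same-numbered arrays from their group means correlated at -0.189, 0.26 and 0.163. Dibromoethane replicates 2 and 3 correlated best with the control of the same number. For replicate 2, that control shared its slide, as did control replicate 1 (0.091). Dibromoethane replicate 1 correlated best with control replicate 3 (0.203), which shared its slide. With 3 arrays per group, these values cannot show whether the numbers pair the animals. The array of dibromoethane replicate 3 was alone on its slide, so a fixed slide block leaves it out of the comparison, while a random slide block keeps it (11 features passed).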
